A study of Rattus norvegicus with 12 samples.

Results

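F11 cells, a hybrid line made from rat dorsal root ganglion neurons and mouse neuroblastoma cells, were compared after 24 h of forskolin with cells that had received none. The comparison rests on 3 of the study's 12 arrays, chosen by the labelled time point, and takes in every gene measured on them: 17633 genes, 9261 of them with a gene symbol. All cells, the reference included, had first spent 3 h in low-serum medium. The 24 h cells then received 10 µM forskolin, and the other arrays hold cells given the same dose for 2, 4 or 48 h, with 3 replicates at each time. The reference was F11 cells taken after the low-serum step without forskolin, and the same reference was put on every array. It is therefore 1 control sample with no spread of its own. No cells kept without forskolin for 24 h were hybridised, so forskolin and the extra day in culture cannot be told apart in any change against the reference. Between times, longer forskolin and more hours in culture cannot be told apart either. The dyes were never swapped: forskolin samples carried Cy3 and the reference Cy5 throughout, so a dye effect of a single gene stays in its change against the reference and cancels between times. Whether replicates were separate cultures is not given in the labels, so the spread behind each p-value may be technical only.

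Forskolin switches on adenylyl cyclases, the enzymes that make cyclic AMP. Cyclic AMP frees the catalytic subunits of protein kinase A, which phosphorylate CREB family factors at cyclic AMP response elements, and a first wave of genes follows within hours. In neurons and neuroblastoma cells prolonged cyclic AMP is known for slower programmes: neurite growth, a neurosecretory character and withdrawal from the cell cycle. The 24 h time point falls after the first wave and before the last time sampled.

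Each value below is the log2 ratio of forskolin over reference for the brightest probe of a gene, so a value of 1 means 2-fold higher than the reference and -1 means 2-fold lower. The deposited value table runs the opposite way, reference over forskolin. A gene "rose" or "fell" where the mean of the 3 arrays differed from 0, or from another time, at an adjusted p under 0.05 (limma, Benjamini-Hochberg over all genes tested). Of 43379 spots that are not controls, the 24 h arrays showed 20024 to 20393 well above background in green (forskolin) and 20890 to 21875 in red (reference). The median SD over the 3 arrays was 0.0762. The probes are for rat, and how the mouse transcripts of the hybrid genome bind them was not measured. Of the fixed marker genes on the array, 12 of 18 for sensory neurons were well above background on all 3 arrays in at least 1 channel, Ret, P2rx3 and Isl1 among them, while Pou4f1, Trpv1 and Trpa1 were not. For sympathetic and neuroblastoma cells the count was 12 of 14, with Phox2a, Hand2 and Gata3. Glial markers reached it for 4 of 18, with S100b, Gfap and Mag not detected, and leukocyte and endothelial markers for 5 of 17, namely Vwf, Cdh5, Csf1r, Cd68 and Kdr, with Ptprc, Aif1, Cd3e and Pecam1 not detected. Of those 5, Vwf and Cdh5 rose (by 0.21 ± 0.07 and 0.18 ± 0.08) and Kdr fell by 0.31 ± 0.08. The 10 markers of unrelated tissues also gave 4 detected, so detection of a marker alone does not name a cell type.

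At 24 h 9497 genes differed from the reference, 53.9% of those tested: 4297 rose (24.4%) and 5200 fell (29.5%). Since most genes tested were called, a share of risen or fallen genes in a group has to be read against these percentages. Changes of at least 2-fold were fewer, 161 genes higher (0.913%) and 122 lower (0.692%). Both the number and the split of these depend on the processing: the 283 genes, 56.9% of them higher, became 615 (54.1%) with normexp offset 0, 1455 (47.4%) with the scanner software's processed signals and 3480 (0.489%) under median centring. The processed signals, to which no offset was added, gave larger changes for the dim genes named below, and their value is printed beside a gene's own where it differs by over 1.5 times. Of the called genes, 9416 had the same sign on all 3 arrays. The split of directions rests on the normalization: 45.2% of the called genes were higher after loess, and 4.1% when each array was centred on its median. That median was taken over all 43379 spots that are not controls, many of them not well above background. Unlike loess, median centring makes no correction that depends on intensity. That centring moved the median of all genes at 24 h from -0.025 to -0.45, and the directions of groups below are also given relative to it. Against the reference itself, 33 of the genes whose values are given below lay on its other side under median centring, most of them moderate rises. The sizes of the largest changes are shown in the plot of the largest rises and falls.

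Among genes with a symbol the largest rise after loess was that of Fst, which encodes follistatin, a secreted protein that binds and blocks activins. Its log2 ratios were 3.62, 3.64 and 3.49 on the 3 arrays, a 12-fold rise (mean 3.58 ± 0.09 SD, n = 3, adjusted p = 4.7e-15). It had been higher still at 4 h (5.09 ± 0.05 SD, n = 3) and fell to 1.11 ± 0.08 at 48 h, so 24 h lay on its way down. Its other probe gave 2.91. With the processed signals Fst was at 3.85 and stood behind Tmem204, Acox2 and Ampd3. Vip, the precursor of vasoactive intestinal peptide, measured 3.14, 3.04 and 3.03, a rise of 8.40-fold (adjusted p = 9.8e-15). It stood at 0.32 at 2 h, 2.62 at 4 h and 1.32 at 48 h. The 24 h arrays of Vip lie above those of every other time, with no overlap. Pnoc, the precursor of the opioid-like peptide nociceptin, gave 1.94, 1.94 and 1.87 at 24 h, after 0.99 ± 0.07 at 4 h.

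Several of the other large rises belong to genes that had barely moved at 4 h. Ampd3, an AMP deaminase, measured 2.28, 2.13 and 2.34 at 24 h (3.94 with the processed signals) and 0.17 ± 0.20 at 4 h. Akr1b8, an aldo-keto reductase, measured 2.20, 2.27 and 2.16 against 0.02 ± 0.06 at 4 h. In both genes every 24 h array lies far above the 4 h arrays. Slc7a8, a transporter of neutral amino acids, rose to 2.12, 1.88 and 1.87 (2.77 with the processed signals) and was at 1.85 ± 0.13 at 48 h. Tmem204, a membrane protein, was at 2.34, 2.81 and 2.50 and at 2.52 ± 0.16 at 48 h (adjusted p for the change 0.92). Its reference signal is dim, and its 24 h value was 3.55 with normexp offset 0 and 4.31 with the processed signals.

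Among the remaining rises are a homeobox factor, a peptide receptor and an enzyme of polyamine synthesis. Emx2, a homeobox transcription factor, reached 1.77 ± 0.05 (SD, n = 3) and was already at 1.85 ± 0.02 at 4 h. Sstr2, a somatostatin receptor, rose by 1.62 ± 0.04. Odc1, the enzyme that commits ornithine to polyamine synthesis, rose by 1.58 ± 0.08 and was back at 0.49 ± 0.05 at 48 h; its other probe gave 1.25. Aplp2, a relative of the amyloid precursor protein, is less certain: its brightest probe rose by 1.69 and its other probe gave 0.08.

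**Figure D1:**
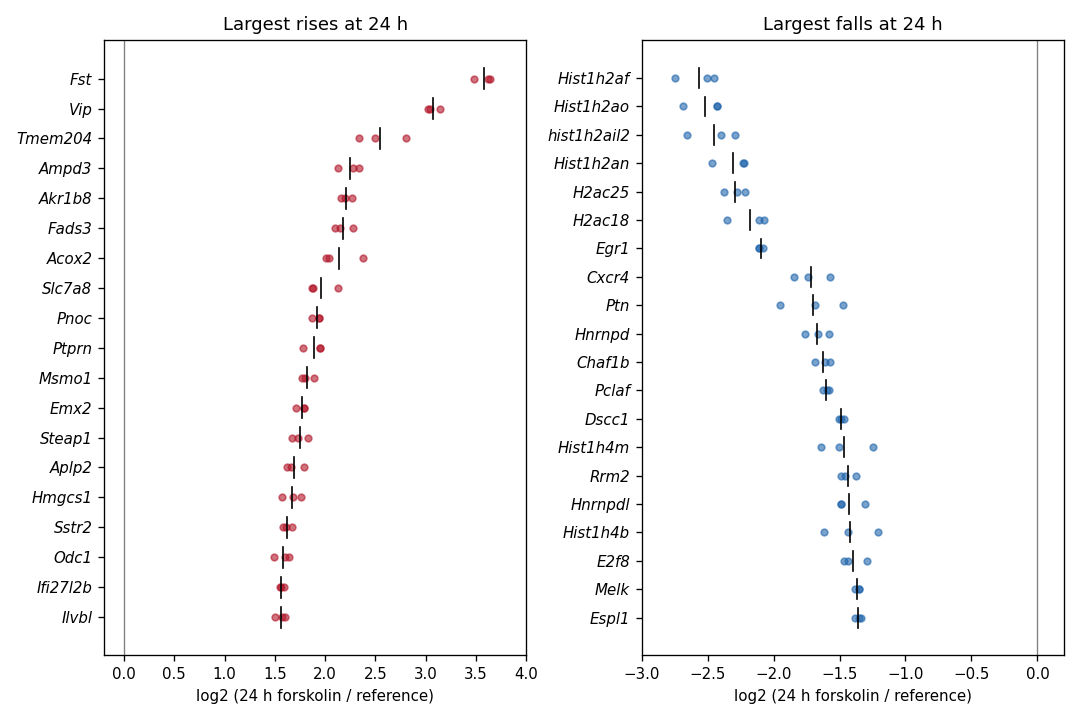
Log2 ratio of 24 h forskolin over reference for 19 of the 20 genes with a symbol that rose most (left) and the 20 that fell most (right); each point is 1 of 3 arrays and the bar is their mean. The 3 arrays of every gene lie on 1 side of 0, from Fst at 3.58 to Ilvbl at 1.56 among the rises and from Hist1h2af at -2.57 to Espl1 at -1.36 among the falls, and keep that sign with no background correction, normexp offset 0, the processed signals and median centring.

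The falls were led by histone H2A genes. Replication-dependent histones are made in S phase, when new DNA must be packed, and their transcripts are scarce outside it. Of 17 such genes measured (35 were listed and 16 have no probe), 14 fell, 0 rose and 3 were not called. Their median was -0.97 against -0.025 over all genes. The list was cut by 2 genes after their values were seen, so these counts come from a list that was not fixed beforehand. Hist1h2af measured -2.75, -2.45 and -2.51, 5.93-fold below the reference (adjusted p = 2.1e-11), after -0.21 ± 0.20 at 4 h. H2ac25 measured -2.38, -2.22 and -2.28, after -0.02 ± 0.10 at 4 h. H2ac1, in the same family, was not called: it gave -0.02, 0.03 and 0.02 (adjusted p = 0.91). Relative to all genes 13 of the 14 falls kept their direction under median centring, H4c14 being the exception, a gene not well above background in the forskolin channel. Median centring lowers many lists, housekeeping genes included (median -0.59 relative to all genes), so a fall kept under it is weaker evidence than a rise kept under it.

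The H2A probes have to be read together, since H2A genes share most of their coding sequence. The probes are shown because their likeness bears on how many separate falls were measured. Capitals mark bases that differ from the Hist1h2af probe where the probes overlap.
Hist1h2af: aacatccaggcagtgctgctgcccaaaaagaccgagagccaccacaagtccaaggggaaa
Hist1h2ao: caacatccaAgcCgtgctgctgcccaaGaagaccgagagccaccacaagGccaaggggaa
hist1h2ail2: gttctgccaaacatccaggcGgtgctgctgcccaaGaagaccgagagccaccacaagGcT
Hist1h2an: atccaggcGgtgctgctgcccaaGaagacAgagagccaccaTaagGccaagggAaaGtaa
H2ac18: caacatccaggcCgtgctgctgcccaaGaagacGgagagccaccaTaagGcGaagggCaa
H2ac25: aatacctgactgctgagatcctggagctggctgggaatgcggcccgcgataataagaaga
H2ac1: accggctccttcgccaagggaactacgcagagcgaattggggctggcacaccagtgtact
The probes of Hist1h2ao, hist1h2ail2, Hist1h2an and H2ac18 match that of Hist1h2af at 55 of 59, 47 of 51, 50 of 57 and 52 of 59 overlapping bases. One transcript can bind several of them, and their falls of -2.52, -2.45, -2.31 and -2.18 are therefore not separate measurements. The probes of H2ac25 and H2ac1 come from other stretches. In rn3, the build of the array files, the probes of Hist1h2af and Hist1h2ao lie at chr17:48516845-48516904 and chr17:50345199-50345258, that of H2ac25 at chr10:45259697-45259756 and that of H2ac18 at chr2:191007772-191007831.

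Histones of other classes fell as well, by less. Hist1h4m measured -1.64, -1.25 and -1.50, and the linker histone H1f4 -0.80, -0.72 and -0.68 (-1.66 with the processed signals). Hist2h3c2 fell by 0.31 ± 0.04 (its other probe gave -1.65) and Hist1h2bh by 0.35 ± 0.08. Histone variants, which are not tied to S phase in the same way, were lower too: 6 of 7 measured fell. H2az1 fell by 1.05 ± 0.04 and the linker variant H1f0 by 1.04 ± 0.09, while H2ax, the variant phosphorylated at DNA breaks, was at -0.02 (adjusted p = 0.81).

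Genes that copy DNA and drive cells through mitosis were lower almost throughout the lists. Of 30 replication genes measured, 26 fell and 0 rose, with a median of -0.57. Of 32 genes of mitosis and the spindle, 31 fell and 0 rose, with a median of -0.64, and Cenpf was not called (-0.01). Over all genes 29.5% fell. Directions relative to all genes were kept under median centring by 25 of the 26 replication genes and 29 of the 31 mitotic ones, the exceptions being Orc6, Birc5 and Hmmr, and by all 26 and 31 with no background correction, normexp offset 0 and the processed signals.

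Rrm2, the regulated subunit of ribonucleotide reductase, measured -1.46, -1.49 and -1.38, a 2.71-fold fall (adjusted p = 6.2e-12). Mcm3, a subunit of the replicative helicase, measured -1.22, -1.25 and -1.10. Pcna, the sliding clamp of DNA polymerases, measured -0.91, -1.22 and -1.09, although it had stood above the reference at 4 h (0.43). All 3 genes have every 24 h array below every 4 h array. The other probes of Rrm2 and Mcm3 gave -0.66 and -0.52. Prim1, the primase, fell by 0.97 ± 0.05. Chaf1b, a subunit of the factor that loads histones behind the fork, fell by 1.62 ± 0.06, and Dscc1, of a clamp loader, by 1.49 ± 0.02. The helicase subunit Mcm4 was at -0.03 (adjusted p = 0.73).

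The mitotic genes named here had unlike values at 4 h. Ccna2, cyclin A, measured -1.27, -1.36 and -1.32 at 24 h and had been at -0.13 at 4 h; its other probe gave -0.62 at 24 h. Bub1b, of the spindle checkpoint, measured -1.24, -1.25 and -1.26, after -0.60 at 4 h. Cdc20, which activates the anaphase-promoting complex, measured -0.97, -0.92 and -0.93 and had a like value at 4 h (-0.98 ± 0.03, adjusted p for the change 0.63). Plk1, a mitotic kinase, was at -0.95 ± 0.03 after -0.84 at 4 h. All the genes named here lie below the list's 24 h median of -0.64, and its 32 members ran from -1.32 to -0.01. Their similar 24 h values therefore do not describe the list. Against 4 h, 24 of the 32 mitotic and 25 of the 30 replication genes were lower, where 17.9% of all genes were, and 22 and 16 of the same genes were lower at 48 h than at 24 h, where 6.88% were.

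Regulators upstream of S phase and the DNA repair genes moved with them in part. Of 21 G1 cyclins, kinases, inhibitors and E2F factors measured, 12 fell and 2 rose: Ccne1, cyclin E, fell by 1.21 as the mean of 3 arrays, E2f8 by 1.39 ± 0.09, Mycn by 0.96 ± 0.06 and Cdk2 by 0.82 ± 0.19. The other probes of Ccne1, E2f8 and Cdk2 gave smaller falls, -0.13, -0.27 and -0.17. Cdc25b, a phosphatase that activates CDKs, rose by 0.37 ± 0.03 and Ccnd3, a D-type cyclin, by 0.31 ± 0.12. The CDK inhibitor Cdkn1a was at -0.12 (adjusted p = 0.051, and 0.033 with the replicate number as a block). Of 21 DNA repair genes 13 fell, led by Bard1, the partner of Brca1 (-1.29 ± 0.07), and the nuclease Exo1 (-1.21 ± 0.03), and 1 rose.

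**Figure D2:**
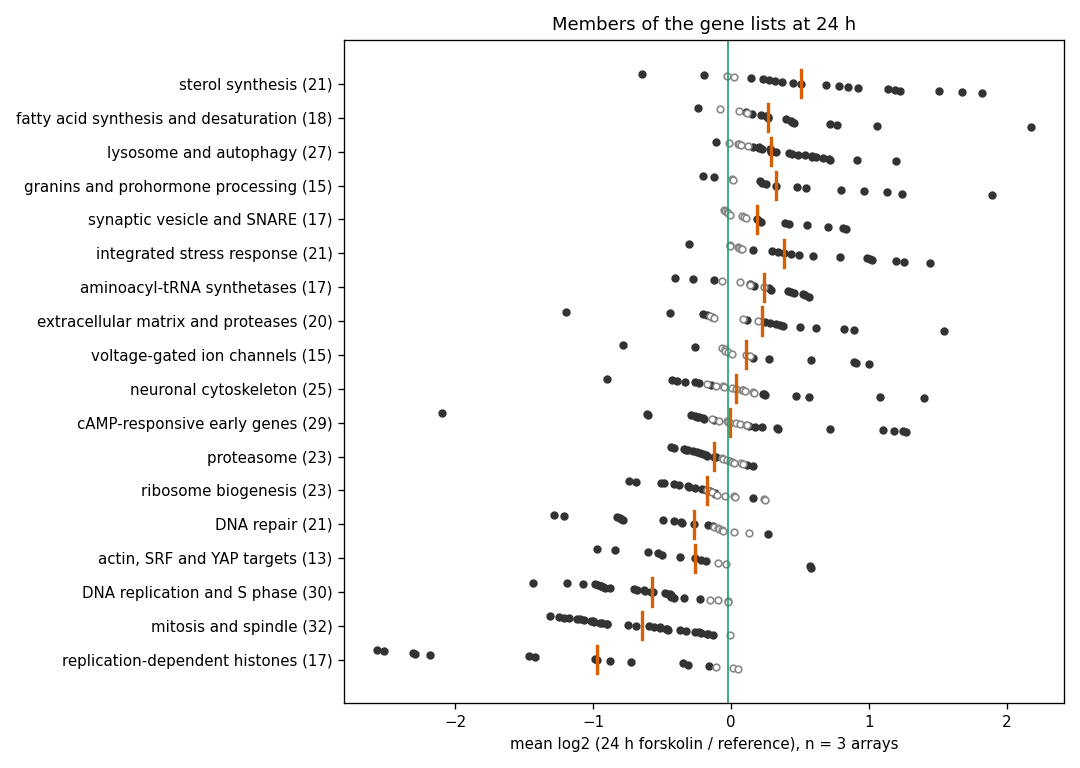
Log2 ratio of 24 h forskolin over reference for each measured member of the gene lists (mean of 3 arrays); filled points were called, open points were not, the orange bar is the list's median and the green line the median of all genes, -0.025. Sterol synthesis has the highest median among the lists drawn at 0.51, and the mitosis, replication and histone lists lie to the left at -0.64, -0.57 and -0.97; under median centring 16 of the 17 sterol rises and 29 of the 31 mitotic falls keep their direction relative to all genes.

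Promoters of the fallen genes are shown here because members moved together, with the letters known for cell-cycle promoters in capitals. In RefSeq sequence (GRCr8), 250 bases before each start were searched on both strands for the CCAAT box (letters CCAAT), the core of the cell-cycle homology region (letters TTTGAA) and forms of the E2F site (letters TTTCGCGC or TTTGGCGC). Cdc20 (chr5:137255800-137256049, minus strand) carries TTTGAA beside CCAAT, and Mcm5 (chr19:13488563-13488812, plus strand), a helicase subunit that fell by 0.58 ± 0.12, carries the E2F letters on both strands, overlapping, and CCAAT further on.
Cdc20: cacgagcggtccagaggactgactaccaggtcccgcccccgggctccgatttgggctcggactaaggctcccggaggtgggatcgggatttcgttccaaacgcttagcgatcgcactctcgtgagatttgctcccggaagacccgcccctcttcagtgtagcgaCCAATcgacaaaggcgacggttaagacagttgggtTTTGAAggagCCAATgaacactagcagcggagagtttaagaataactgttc
Mcm5: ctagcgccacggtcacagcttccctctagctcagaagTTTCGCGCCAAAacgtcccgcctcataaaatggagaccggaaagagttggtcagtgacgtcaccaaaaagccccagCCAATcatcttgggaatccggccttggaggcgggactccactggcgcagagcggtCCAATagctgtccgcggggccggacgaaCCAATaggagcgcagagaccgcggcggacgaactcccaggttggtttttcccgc
TTTGAA stands in 12 of the 25 mitotic promoters in the table (48%), in 10.4% of the 7589 promoters of genes tested and in 16% of all 27457. CCAAT stands in 18 of those 25 (72%) and in 35.8% of the genes tested. The E2F letters stand in 6 of 25 replication promoters (24%) against 1.25% of the genes tested. The promoters shown carry the letters, and others do not: Bub1b lacks TTTGAA and CCAAT, and Mcm3 and Pcna lack the E2F letters. Among 59 promoters of genes that fell at least 2-fold, TTTGAA stands in 15 (25.4%) and CCAAT in 32 (54.2%). The E2F letters stand in 1 of the 59 (1.69%). These are matches of letters, and binding was not measured.

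Sterol synthesis had the highest median of all the gene lists. Cells make cholesterol from acetyl-CoA through mevalonate, farnesyl diphosphate, squalene and lanosterol, and the enzymes are held at matching levels by SREBP factors, which are released when membrane cholesterol is low. Of 21 enzymes measured 17 rose and 2 fell, with a median of 0.51 at 24 h, 0.06 at 4 h and 0.55 at 48 h. Against 4 h, 17 were higher, where 21.2% of all genes were, and 6 were at least 2-fold above the reference. Under median centring 16 of the 17 rises kept their direction relative to all genes, Acat2 being the exception.

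The early steps rose by unlike amounts. Acat2 rose by only 0.14, and the enzymes named next by more. Hmgcs1, which makes HMG-CoA, measured 1.57, 1.68 and 1.76, a 3.19-fold rise (adjusted p = 2.7e-11) from 0.40 ± 0.01 at 4 h; its other probe gave 0.67. Its 24 h arrays do not overlap its 4 h arrays. Fdps, which makes farnesyl diphosphate, measured 1.43, 1.48 and 1.61, and Fdft1 and Sqle, which make and oxidise squalene, rose by 1.22 ± 0.09 and 1.14 ± 0.01.

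Steps after lanosterol were mixed. Msmo1, a methylsterol oxidase, measured 1.80, 1.77 and 1.89, the largest rise of the pathway (3.53-fold, adjusted p = 1.0e-12), and Cyp51, the lanosterol demethylase, measured 1.21, 1.14 and 1.22. Ebp, a sterol isomerase, was at 0.02 and Hsd17b7 at -0.03, neither called. Tm7sf2, a sterol reductase, went the other way: -0.82, -0.51 and -0.60 at 24 h and 0.55 ± 0.09 at 48 h. Ggps1, which leaves the pathway for geranylgeranyl diphosphate, fell by 0.20 ± 0.07.

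**Figure D3:**
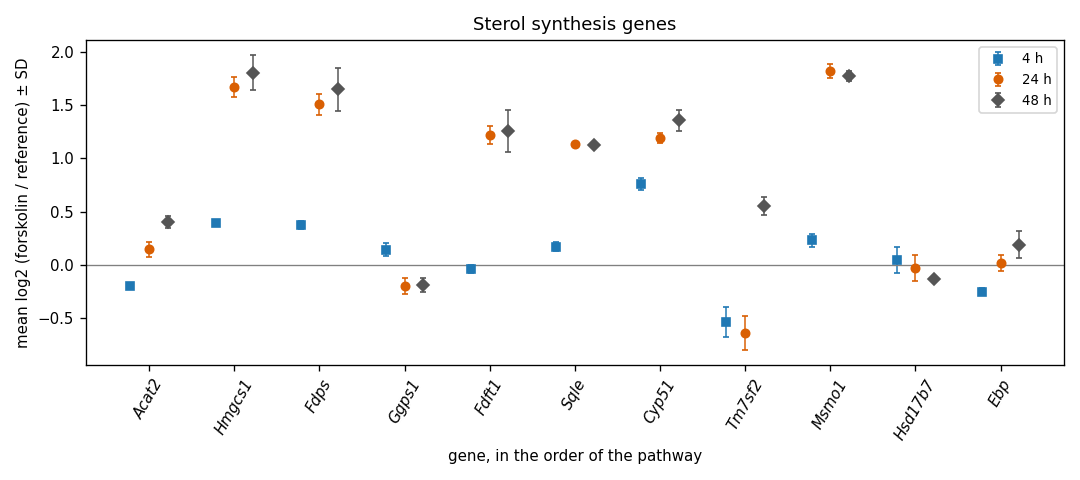
Log2 ratio of forskolin over reference for 11 sterol enzymes in the order of the pathway at 4, 24 and 48 h (mean ± SD, n = 3 arrays). At 24 h the highest are Msmo1 at 1.82 and Hmgcs1 at 1.67, while Tm7sf2 is at -0.64 at 24 h and 0.55 at 48 h.

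Genes around the pathway rose to a lesser extent. Insig1, which holds SREBP in the endoplasmic reticulum and is itself an SREBP target, measured 1.48, 1.39 and 1.49, and 0.92 to 2.04 from its other probes. Srebf1, the gene of SREBP-1, measured 0.32, 0.45 and 0.44 after -0.85 at 4 h, so it crossed from below to above the reference after loess. Nr1h3, the oxysterol receptor LXR alpha, made the same crossing, from -0.33 to 0.69 ± 0.07. Under median centring both lay below the reference at 24 h (-0.45 and -0.051). Apoe, which carries lipid out of cells, fell by 0.41 ± 0.09. In all 8 of the 14 genes of sterol sensing, uptake and export that were measured rose, 1 fell and 5 were not called, and 7 of the 8 rises kept their direction relative to all genes under median centring (not Nr1h2).

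Fatty acid genes were also higher than at 4 h. Of 18 genes of fatty acid synthesis and desaturation measured, 14 rose and 1 fell, with a median of 0.27. Against 4 h, 14 were higher, where 21.2% of all genes were. Fads3, a desaturase, measured 2.10, 2.15 and 2.28 after 0.03 ± 0.05 at 4 h. Acly, which supplies cytosolic acetyl-CoA to both pathways, measured 1.03, 1.05 and 1.09, and Scd, which makes monounsaturated fatty acids, 0.79, 0.79 and 0.73. Acaca, the committed step, was only 0.11 ± 0.03 above the reference, though 0.44 above its own 4 h mean, and was not called against the reference without any 1 of the replicates (adjusted p = 0.070, 0.17 and 0.096). Under median centring 8 of the 14 rises kept their direction relative to all genes. Acox2, a peroxisomal oxidase of branched fatty acids and bile acid precursors, stood far above the other oxidation genes with 2.01, 2.38 and 2.03 (4.10 with the processed signals); of 15 oxidation genes 9 rose and 2 fell.

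The promoters of 2 of the most changed sterol genes are shown for the CCAAT box, bound by NF-Y, a known partner of SREBP. Hmgcs1 is from chr2:53382054-53382303 (plus strand) and Msmo1 from chr16:29746863-29747112 (plus strand) in GRCr8, and capitals mark CCAAT on either strand.
Hmgcs1: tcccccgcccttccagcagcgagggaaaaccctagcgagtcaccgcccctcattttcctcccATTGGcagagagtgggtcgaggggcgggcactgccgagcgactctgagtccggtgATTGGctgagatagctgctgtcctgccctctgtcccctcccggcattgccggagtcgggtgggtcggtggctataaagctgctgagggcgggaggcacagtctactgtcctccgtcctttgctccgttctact
Msmo1: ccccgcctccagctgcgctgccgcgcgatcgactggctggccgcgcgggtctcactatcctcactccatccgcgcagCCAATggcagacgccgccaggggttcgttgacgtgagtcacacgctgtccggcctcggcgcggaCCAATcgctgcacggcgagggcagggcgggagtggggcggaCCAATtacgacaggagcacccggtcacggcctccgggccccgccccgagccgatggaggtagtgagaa
CCAAT stands in 13 of the 16 sterol synthesis promoters in the table (81.2%) and in 35.8% of the genes tested. The letters TCACCCCAC, 1 form of the sterol response element, were in 0 of the 16. The cyclic AMP response element TGACGTCA was likewise in 0 of the 16, and in 5 of the 84 promoters of genes that rose at least 2-fold (5.95%) against 2.91% of the genes tested.

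Genes of secretory granules formed the next group. Neuroendocrine cells store peptides in dense-core granules, built around granins and filled with the enzymes that trim prohormones. Of 15 such genes measured 11 rose and 2 fell, with a median of 0.32 at 24 h. Ptprn, a granule membrane protein, measured 1.78, 1.95 and 1.95, and Vgf, a granin-like precursor, 1.25, 1.17 and 1.31. Resp18, a granule protein, rose by 0.96 ± 0.04 and Pam, which amidates peptides, by 0.80 ± 0.12. Chga, chromogranin A, measured 0.54, 0.56 and 0.52 after -0.16 at 4 h and went on to 1.39 at 48 h. Cpe, a carboxypeptidase that trims prohormones, fell by 0.13 ± 0.14 and was not called without replicate 2 or 3 (adjusted p = 0.41 and 0.12). Under median centring 7 of the 11 rises kept their direction relative to all genes, and Chga, Chgb, Scg3 and Scg5 did not.

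Neuropeptide precursors did not share 1 direction. Of 11 measured 5 rose and 3 fell, and 9 were well above background in both channels on all 24 h arrays. The smallest rise, 0.13, was of a gene above background on 1 forskolin array and on 0 reference arrays. Tac1, the precursor of substance P, measured 0.85, 0.80 and 0.80, far below its 4 h mean of 3.27 ± 0.11, while Vip was above its own. Npy, neuropeptide Y, measured -0.75, -0.73 and -0.74 and Pomc, the precursor of corticotropin and endorphin, -0.44, -0.43 and -0.48. Calca, the gene of CGRP, fell by 0.18 ± 0.03.

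Synaptic vesicle genes rose in 9 of 17 measured, with 0 falls and a median of 0.19. Vamp2 and Snap25, SNARE proteins of vesicle and plasma membrane, measured 0.78, 0.75 and 0.98, and 0.78, 0.32 and 0.56. Syp, the vesicle protein synaptophysin, rose by 0.81 ± 0.08. Other members were not called, such as the calcium sensor Syt1 at -0.03 (adjusted p = 0.58). Among 15 voltage-gated channels 6 rose and 2 fell. The 3 largest rises were pore subunits of calcium channels: Cacna1c measured 1.16, 0.93 and 0.92, Cacna1d 0.90, 0.83 and 0.98, and Cacna1b 0.82, 0.85 and 1.00. For Cacna1d the processed signals gave 2.23 and the other probe 0.15. Cacna1b had been below the reference at 4 h (-0.38). Scn3b, an accessory subunit of sodium channels, fell by 0.79 ± 0.09 and was back at 0.06 at 48 h. All 6 channel rises and 8 of the 9 vesicle rises (not Syn2) kept their direction relative to all genes under median centring.

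**Figure D4:**
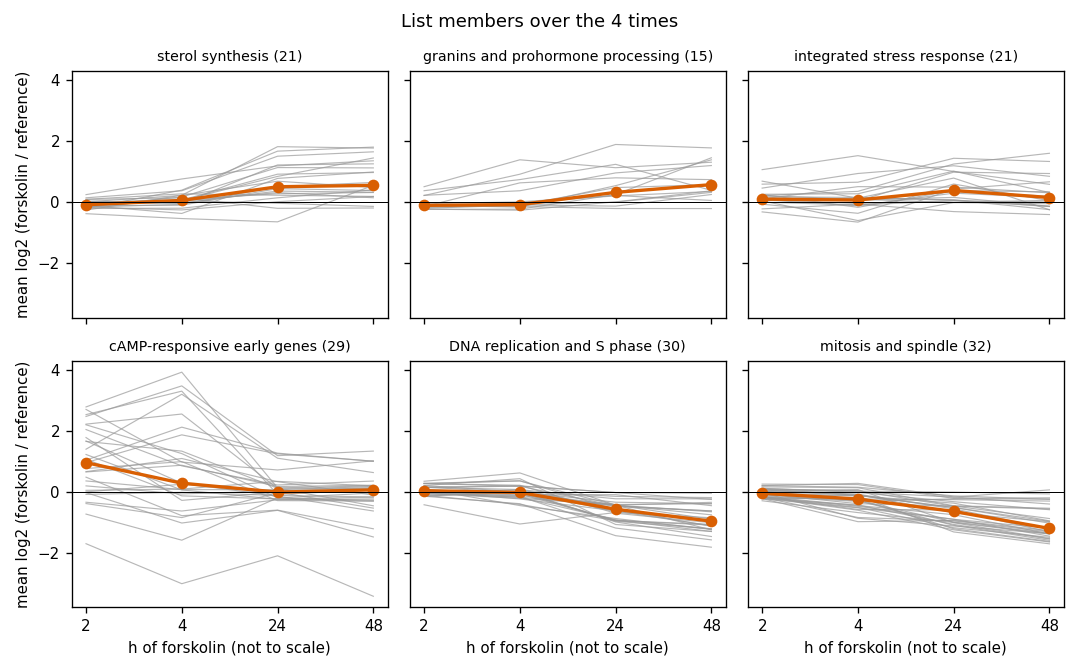
Log2 ratio of forskolin over reference at 2, 4, 24 and 48 h for the members of 6 gene lists (grey lines, mean of 3 arrays) and each list's median (orange). The medians for early cyclic AMP genes go from 0.95 at 2 h to -0.01 at 24 h, those for sterol synthesis from 0.06 at 4 h to 0.51 at 24 h, and those for mitosis from -0.64 at 24 h to -1.20 at 48 h.

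Lysosomal and autophagy genes rose in 21 of 27 measured and fell in 1, with a median of 0.29. Sqstm1, the autophagy receptor p62, measured 1.08, 1.17 and 1.34, and 0.24 to 0.95 from its other probes. Atp6v1b2, of the proton pump that acidifies the lysosome, measured 0.87, 0.86 and 1.01. Tfeb, a transcription factor that drives lysosomal genes, rose by 0.67 ± 0.13 (1.33 with the processed signals) and the protease Ctsl by 0.71 ± 0.11. Ctsb, another lysosomal protease, fell by 0.11 ± 0.03, a call lost without any 1 of the replicates (adjusted p = 0.13, 0.17 and 0.084). Under median centring 12 of the 21 rises kept their direction relative to all genes.

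Genes of the integrated stress response, which acts through Atf4 when translation initiation is checked, rose in 14 of 21 measured and fell in 1, with a median of 0.38 at 24 h and 0.15 at 48 h. Ddit4, an inhibitor of mTORC1, measured 1.45, 1.37 and 1.50 (2.23 with the processed signals), and Atf5, a factor of the same response, 1.20, 1.24 and 1.32. Ddit3, which encodes CHOP, measured 1.01, 1.08 and 0.97 and was lower at every other time (0.26, 0.28 and 0.32 at 2, 4 and 48 h). Nupr1, a stress-induced nuclear protein, rose by 0.98 ± 0.01 after 0.04 at 4 h. Ppp1r15a, which restores translation, rose by 0.79 ± 0.11 and was at -0.25 at 48 h. The list depends on the scaling: relative to all genes its median was -0.13 under median centring, where Asns, Atf4, Chac1, Pck2, Phgdh and Trib3 no longer lay above it. Aminoacyl-tRNA synthetases, which Atf4 also drives, rose in 10 of 17 and fell in 3, and 6 of the 10 rises kept their direction relative to all genes.

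Genes that make ribosomes and proteasomes were lower. Of 23 ribosome biogenesis genes 14 fell and 1 rose, with a median of -0.18. The nucleolar proteins Nop58 and Fbl, which modify ribosomal RNA, fell by 0.74 ± 0.07 and 0.69 ± 0.03, and Rrs1, an assembly factor, rose by 0.16 ± 0.07 and was not called without replicate 2 or 3 (adjusted p = 0.16 and 0.098). Of 23 proteasome subunits 13 fell and 2 rose, by small amounts: the largest fall was Psmc5, an ATPase of the cap, at -0.44 ± 0.07.

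Matrix and cytoskeletal genes split. Of 20 matrix genes and proteases measured, 11 rose and 5 fell. Sparc, a secreted collagen-binding protein, measured 1.49, 1.59 and 1.54, and Col18a1, a basement membrane collagen, 0.80, 0.91 and 0.96. Fn1, fibronectin, went down, with -1.18, -1.24 and -1.17 (-0.44 from its other probe). Of 13 genes of actin and of the factors SRF and YAP, 9 fell, including Srf itself (-0.97 ± 0.01, with its other probes between -0.96 and 0.56) and Actb (-0.84 ± 0.08), while the adhesion protein Zyx rose by 0.58 ± 0.08 and the actin crosslinker Flna by 0.57 ± 0.02. Fibroblast markers were split as well: of 8 measured 4 rose and 3 fell. Under median centring 1 of the 4 rises and 1 of the 3 falls kept their direction relative to all genes. The summed signal of the 8 ran from 17406 to 18995 after forskolin and from 12291 to 12624 in the reference. Bright members weigh most in such a sum, so it does not describe the markers as a set. Of 14 such markers with a probe, 8 were detected on all 3 arrays, among them Col1a1, Col1a2, Pdgfrb and Thy1 in both channels, and Col3a1, Dcn, Lum, Postn and Fap in neither channel on any array. Pdgfrb rose by 1.08 ± 0.02, Col1a1 fell by 0.21 ± 0.08 and Col1a2 was not called (-0.16). The part of other cells in the matrix values was not tested. Fewer cells of a kind and less RNA per cell cannot be told apart in such bulk samples, here and for the cell-cycle genes.

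The first wave of cyclic AMP genes had mostly subsided. The list holds 29 measured genes that are known to respond within hours. Its median was 0.95 at 2 h, 0.28 at 4 h and -0.01 at 24 h. At 24 h 10 rose and 10 fell (34.5% each), and 17 were lower than at 4 h, where 17.9% of all genes were. Sik1, a kinase that restrains CREB signalling, was still at 1.34, 1.11 and 1.10, well under its 4 h log2 value of 3.47 ± 0.16. Crem, whose product includes the repressor ICER, measured 1.26, 1.06 and 0.98 after 3.20 at 4 h. Pde4d, which breaks down cyclic AMP, kept more of its rise, with 1.24, 1.23 and 1.25 after 1.86, but its other probes gave 0.13 to 0.44 and the processed signals 2.26. Egr1, an immediate early factor driven by serum and MAP kinase as well, lay below the reference at all 4 times. At 24 h it measured -2.08, -2.11 and -2.11, less far below than at 4 h (-3.01 ± 0.10) and 48 h (-3.42 ± 0.15).

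Other large falls belong to no list above. Cxcr4, the receptor for the chemokine CXCL12, measured -1.85, -1.74 and -1.57 (-2.72 with the processed signals) after 0.25 at 2 h and -0.89 at 4 h. Ptn, the growth factor pleiotrophin, measured -1.47, -1.95 and -1.68. Hnrnpd and Hnrnpdl, related RNA-binding proteins, fell by 1.67 ± 0.09 and 1.43 ± 0.11. For Hnrnpd the other probe gave -0.71. Hnrnpdl had been above the reference at 4 h (0.57 ± 0.05), so it crossed over.

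Genes of the cyclic AMP pathway itself rose in 9 of 23 measured and fell in 5. Adcy6, an adenylyl cyclase, measured 0.90, 0.92 and 0.94 after 0.01 at 4 h, and Prkar1a, a regulatory subunit of protein kinase A, 0.85, 0.78 and 0.94. Akap5, which anchors the kinase, fell by 0.73 ± 0.03 (-1.94 with the processed signals). Under median centring 6 of the 9 rises kept their direction relative to all genes, and Gnas, Crebbp and Prkar1a did not.

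Genes that mark the parent cells split within each list. Of 12 sensory neuron genes measured 4 rose and 2 fell: Runx1, a factor of pain-sensing neurons, measured 0.92, 1.07 and 1.01, and Isl1, a homeobox factor of sensory neurons, -0.60, -0.49 and -0.46. Of 12 sympathetic and neuroblastoma genes 3 rose and 5 fell, led by Phox2a, a homeobox factor of autonomic neurons (0.68 ± 0.09), and Dlk1 (-0.60 ± 0.11), and none of the 3 rises lay above all genes under median centring. Neuronal cytoskeleton genes rose in 7 of 25 and fell in 7. Mapt, the microtubule protein tau, measured 1.29, 1.42 and 1.49 after -0.31 at 4 h, and Stmn1, which destabilises microtubules and is abundant in dividing cells, -0.92, -0.94 and -0.84. Both lay clear of their 4 h arrays.

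Metabolic lists were divided too. Of 29 genes of glycolysis and hypoxia 17 rose and 6 fell; the glucose transporter Slc2a1 rose by 0.79 ± 0.09 and the lactate transporter Slc16a3 fell by 0.92 ± 0.06, and 7 of the 17 rises kept their direction relative to all genes. Of 25 genes of NRF2 and glutathione 13 rose and 7 fell, with Fth1, ferritin heavy chain, at 1.26, 1.08 and 1.09 and Gpx1, a glutathione peroxidase, at -1.20, -1.20 and -1.31. Of the 13 rises 8 kept their direction. Respiratory chain genes rose in 11 of 29 and fell in 8, and ribosomal protein genes rose in 12 of 22 and fell in 7, but 0 of those 11 and 1 of those 12 rises remained above all genes under median centring.

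Between 4 and 24 h 6900 genes changed (39.1%), 3735 upward (21.2%) and 3165 downward (17.9%), and here the reference and its dye cancel. Position on the slide follows the time point, so an effect of position and of time cannot be told apart. Hours of forskolin and hours in culture also go together, and do not cancel between times. Under median centring 79.5% of the changes were upward, against 54.1% after loess. Changes of at least 2-fold took in 226 genes upward (1.28%) and 137 downward (0.777%). In 1536 genes the 2 times were called on opposite sides of the reference. P2ry6, a receptor for UDP, went from -1.39 ± 0.01 at 4 h to 0.89, 0.92 and 0.88 at 24 h, a difference of 2.29 (adjusted p = 5.1e-11). Klf10, a zinc finger factor induced by TGF-beta, was at -2.55 ± 0.07 at 4 h and at -0.43, -0.56 and -0.54 at 24 h. Both had 24 h arrays well clear of the 4 h arrays. Downward, Rgs2, which shortens G protein signals, went from 3.92 ± 0.01 to 0.08, 0.18 and 0.12. Drops were ranked only among genes with a symbol, called against the reference at 24 h and of 1 sign on all arrays. Among those it was the largest. Id4, an inhibitor of bHLH factors, went from 2.21 ± 0.10 to -0.89, -0.95 and -1.08, so that a strongly raised gene at 4 h was a lowered one at 24 h.

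Between 24 and 48 h 2644 genes changed (15%), 1430 upward (8.11%) and 1214 downward (6.88%), against 277 under median centring. Changes of at least 2-fold took in only 19 genes upward (0.108% of all genes tested) and 8 downward (0.0454%). Angpt2, the vessel-destabilising ligand angiopoietin 2, measured -1.04, -0.99 and -0.85 at 24 h and 0.62 ± 0.04 at 48 h; its other probe gave 0.15 at 24 h. Pcp4, a calmodulin-binding peptide of neurons, was at -0.07, -0.30 and -0.35 and then at 1.03 ± 0.10. Chgb, chromogranin B, went from 0.22, 0.24 and 0.29 to 1.46 ± 0.06. Over the same interval Vip and Fst fell by 1.75 and 2.47. Id1, a relative of Id4, was at 0.29, 0.17 and 0.08 at 24 h and at -0.94 ± 0.02 at 48 h, and Lmna, a nuclear lamin, went from 0.36, 0.42 and 0.36 to -0.57 ± 0.07.

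A gene counts as highest at 24 h if it was called above each of the other 3 times, and as lowest likewise. There were 246 genes highest (1.4%) and 177 lowest (1.0%). Of these, 235 of the former were also above the reference (1.33% of all genes tested) and 167 of the latter below it (0.947% of all genes tested). The direction of this split depends on the scaling: 58.2% were highest after loess, 84.8% after median centring and 46.6% with the scanner software's processed signals. Steap1, a membrane metalloreductase family member, measured 1.83, 1.73 and 1.67 at 24 h, with -0.07, -0.26 and 0.74 at 2, 4 and 48 h. Sparc was at 0.62 ± 0.10 at 48 h and Anxa2, a calcium-dependent membrane binder, measured 1.50, 1.46 and 1.37 with 0.52 ± 0.17 at 48 h. Casp4, an inflammatory caspase, measured 1.02, 0.98 and 0.89, having been below the reference at 4 h (-0.18 ± 0.08). Nnmt, which methylates nicotinamide, was above the reference at 24 h only, with 0.38, 0.48 and 0.36, and below it at 2, 4 and 48 h (-0.26, -0.31 and -0.27). Under median centring it lay below the reference at 24 h too.

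Among genes lowest at 24 h, Rufy3, a protein of neuronal polarity and axon growth, measured -0.72, -0.82 and -0.68, between 0.42 ± 0.06 at 4 h and 0.53 ± 0.11 at 48 h. Itpka, a kinase of inositol trisphosphate that bundles actin in neurons, measured -1.45, -1.25 and -1.30 and was at -0.11 ± 0.08 at 48 h. Gamt, the last enzyme of creatine synthesis, measured -0.92, -0.82 and -0.77, with 0.26 ± 0.07 at 48 h. Each of these genes has its 3 arrays at 24 h below all arrays of the neighbouring times. Kcnk2, a background potassium channel, measured -0.72, -0.77 and -0.73, and Ltbp1, which tethers latent TGF-beta, -0.94, -1.06 and -0.97. Bhlhe41, a clock-linked repressor, is of another kind: it was lowest at 24 h but still above the reference, with 1.37, 1.24 and 1.31, after 3.20 ± 0.06 at 2 h.

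**Figure D5:**
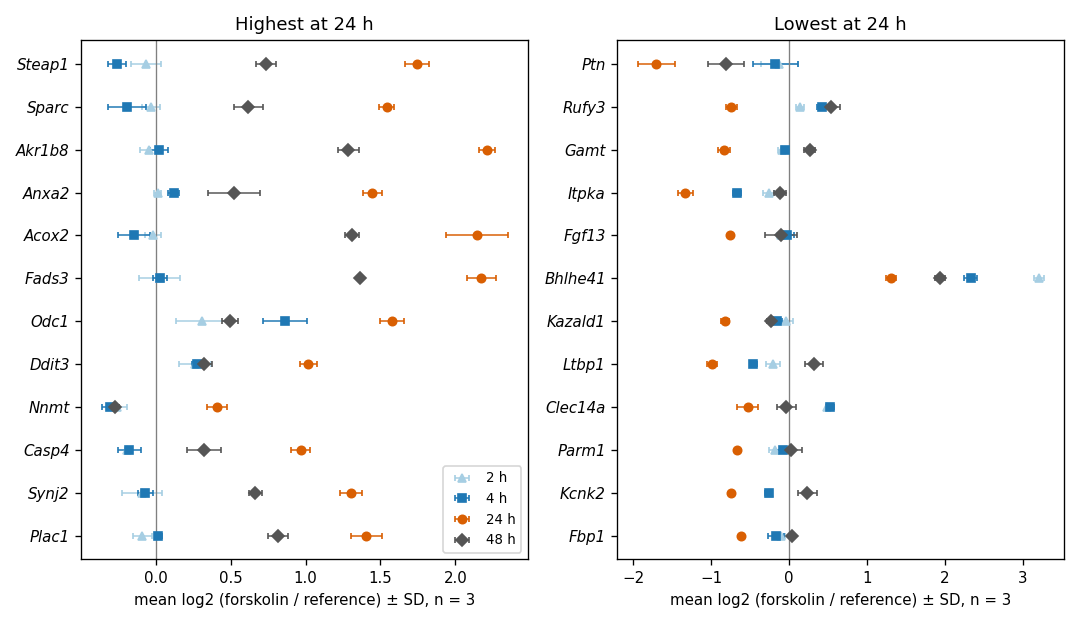
Log2 ratio of forskolin over reference for the 12 genes highest and the 12 genes lowest at 24 h with the widest gap to the nearest other time (triangles 2 h, squares 4 h, orange circles 24 h, diamonds 48 h; mean ± SD, n = 3 arrays). Steap1 stands 1.01 above its 48 h mean, and Bhlhe41 is lowest at 24 h while still at 1.31; under median centring 11 of the 12 highest genes stay above the reference, Nnmt being the exception.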

How the data were processed

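Total RNA was labelled and hybridised to 12 two-colour Agilent rat arrays. Per the file headers, the deposited intensity values are the spot and local background signals that Agilent Feature Extraction 9.5.1.1 wrote. The authors' deposited log2 values run as red over green (slopes of 1.06 to 1.10 and r of 0.995 to 0.998 against the scanner ratios over bright spots). Their normalization is not given in the sources used. limma is named in the submitters' processing notes, without a version. In 1 scanner file, 24 h replicate 2, 2 missing line breaks were restored.

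Signals were corrected with normexp (offset 50) and normalized by loess within each array in limma 3.58.1 (R 4.3.3), with control spots at weight 0 and outlier spots left out. Spots of a probe were averaged. A probe was kept if well above background in 1 channel on all 3 arrays of a time point: 20419 of 41012 probes. The brightest kept probe stood for its gene, so a gene with several probes is judged on 1 of them. The means of the 4 times were fitted over all 12 arrays with lmFit and eBayes (8 residual degrees of freedom). P-values were adjusted over all genes by Benjamini-Hochberg, and genes were called at an adjusted p under 0.05. The reference enters as a ratio against 0, which leaves out its own spread. The fit was tested on simulated data.

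Probes were named through RefSeq by accession (10735), current symbol (5571), another accession (83) or synonym (3705), and 20918 kept the name in the file. Probe coordinates are in rn3, as in the files, and promoters are RefSeq sequence of GRCr8. Genes with a symbol, called and of 1 sign on all 3 arrays, were named by rank: the 20 largest rises and falls, the 12 highest and 12 lowest at 24 h by the gap to the nearest time, and the 8 largest changes each way from 4 h and to 48 h. Members of the gene lists were named as such. A few genes that the rule or the lists include are not reported by name here, though list counts include them. The members and lists were chosen with earlier results of these data known, and 2 genes were taken off the histone list after their values were seen.

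Arrays sharing a replicate number share a slide. Their deviations from the time means correlated at 0.14 to 0.48 between 24 and 4 h and 0.22 to 0.44 between 24 and 2 h. Between 24 and 48 h they correlated at 0.07 to 0.43. Arrays of unlike number reached 0.29 between 24 and 4 h, 0.11 between 24 and 2 h and 0.31 between 24 and 48 h. Only between 24 and 2 h did every pair of like number correlate more than every pair of unlike number.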

Additional observations from a re-analysis of the deposited data

Results flagged for a closer look

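The following genes were called on opposite sides of the reference at 24 h and at a neighbouring time, and the difference between the 2 times was itself past the threshold (limma, adjusted p over all genes tested). From 4 to 24 h the change was upward in P2ry6 (2.29, adjusted p = 5.1e-11), Enc1 (2.07, 9.7e-10), Steap1 (2.01, 1.2e-10), Sparc (1.73, 8.0e-10), Ifi27l2b (1.67, 8.3e-11), Casp4 (1.14, 1.3e-08), Nnmt (0.71, 3.5e-07) and Chgb (0.48, 1.5e-05). Among the other list members it was upward in Mapt (1.71, 9.4e-09), Col18a1 (1.30, 4.8e-08), Cacna1b (1.28, 8.1e-09), Srebf1 (1.25, 1.0e-08), Nr1h3 (1.02, 6.4e-09), Scd (1.002, 9.4e-07), Phox2a (0.96, 4.3e-08), Chga (0.70, 2.4e-07) and Acaca (0.44, 2.9e-05). It was downward in Id4 (-3.19, 8.6e-12), Hnrnpdl (-1.995, 9.2e-10), Rufy3 (-1.17, 1.2e-08) and Clec14a (-1.06, 7.6e-08), and among list members in Pcna (-1.50, 1.5e-07), Mcm5 (-0.94, 3.2e-06), Isl1 (-0.87, 6.5e-08), Hist2h3c2 (-0.72, 3.3e-07), Hist1h2bh (-0.62, 1.7e-05), Pomc (-0.61, 1.2e-06) and Ggps1 (-0.34, 0.00056).

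From 24 to 48 h the change was upward in Angpt2 (1.58, adjusted p = 1.9e-08), Ltbp1 (1.31, 7.4e-08), Rufy3 (1.28, 7.4e-08), Pcp4 (1.27, 1.9e-06), Tm7sf2 (1.20, 2.2e-06), Gamt (1.10, 7.4e-08), Kcnk2 (0.97, 4.7e-07), Cpe (0.38, 0.0023) and Ctsb (0.23, 0.023). It was downward in Id1 (-1.12, 1.1e-07), Ppp1r15a (-1.04, 1.2e-06), Lmna (-0.95, 2.2e-07), Nnmt (-0.68, 5.2e-06) and Rrs1 (-0.36, 0.0081). Rufy3 and Nnmt crossed the reference on both sides of 24 h, Rufy3 downward and then upward and Nnmt the other way round. Relative to the reference under median centring, Acaca, Chga, Chgb, Col18a1, Enc1, Id1, Lmna, Nnmt, Nr1h3, Phox2a, Ppp1r15a, Rrs1 and Srebf1 lay on the other side at 24 h.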

How the results depend on the processing

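Median centring in place of loess moved counts most: 3360 genes then differed between 24 and 4 h (6900 after loess), 277 between 48 and 24 h (2644), 3480 were changed at least 2-fold at 24 h (283) and 46 were highest or lowest at 24 h (423). It put on the other side of the reference Acaca (-1.03), Acly (-0.12), Atf5 (-0.15), Atp6v1b2 (-0.23), Ccnd3 (-0.35), Cdc25b (-0.0052), Chga (-0.49), Chgb (-1.20), Col18a1 (-0.16), Ctsl (-0.30), Ebp (-1.04), Enc1 (-0.80), Flna (-0.40), Fth1 (-0.13), H2ac1 (-0.14), Id1 (-0.84), Lmna (-0.75), Nnmt (-0.52), Nr1h3 (-0.051), Nupr1 (-0.097), Pam (-0.24), Phox2a (-0.54), Ppp1r15a (-0.076), Prkar1a (-0.48), Resp18 (-0.32), Rgs2 (-0.83), Rrs1 (-0.21), Slc2a1 (-0.15), Snap25 (-0.35), Srebf1 (-0.45), Syp (-0.018), Vgf (-0.24) and Zyx (-0.35). In 10 more named genes, Casp4, Ddit3 and P2ry6 among them (adjusted p = 0.071, 0.71 and 0.59), the call was lost. Counts of at least 2-fold also rose with the processed signals (1455) and with normexp offset 0 (615); the cause was not tested. Leaving out 1 replicate at a time gave 7830 to 8315 genes called at 24 h (9497 with all), 281 to 295 at least 2-fold, 5957 to 6264 against 4 h, 1879 to 2693 against 48 h and 301 to 473 highest or lowest. The calls of Id1, Pcp4 and Rgs2 against the reference were lost without 1 of the 24 h replicates (replicate 1, adjusted p = 0.057, for Id1; replicates 2 and 3 for Pcp4, 0.059 and 0.090, and Rgs2, 0.16 and 0.080), and that of Rgs2 also with no filter on dim probes (0.065). Acaca and Ctsb lost theirs without any 1 of the 24 h replicates, and Cpe and Rrs1 without replicate 2 or 3. Of genes not called, Cenpf ranged from -0.052 to 0.011 over these fits, Ebp from -0.023 to 0.048, H2ac1 from -0.0010 to 0.027, H2ax from -0.043 to 0.0051, Hsd17b7 from -0.091 to 0.031 and Syt1 from -0.064 to 0.015, and Syt1 was at 0.14 with the processed signals and 0.051 with no background correction. With the replicate number as a block the counts were 10325, 283, 7707, 3368 and 550, and of the named genes 1 changed its call, Cdkn1a. With the processed signals, the deposited values, normexp offset 0, the mean of all probes of a gene, no filter on dim probes and only the arrays compared, the named genes called with loess that have a value there kept their direction (the deposited values were not compared for 9 of the 161 named genes, the leading H2A genes among them), and the calls lost were of Acaca, Cpe, Ctsb, Rgs2 or Rrs1. Genes near background, 758 of them above it in the reference channel alone and 190 in the forskolin channel alone, have only bounded changes.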

Other observations

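The 10 spike-in control probes, each on 32 spots, were left out of the fits. After loess their mean log2 ratios on the 24 h arrays ran from -3.61 to 2.67, and all 10 were lower on replicate 3 than on replicate 1.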
